A study of Mus musculus with 6 samples.

Results

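The 42 genes described here encode the non-collagen part of the extracellular matrix: interstitial glycoproteins, laminins and their linkers in the basement membrane, elastic fibre proteins, and proteoglycans. They were taken by gene symbol from the deposited table of 18477 genes, and all 42 were present. Colon RNA came from male C57BL/6 mice of 6 to 8 weeks, for which no transgene or deletion is named. The DSS group (n = 3) drank 2% dextran sulfate sodium, which injures the colon epithelium, from day 8 to day 14 and received PBS by gavage daily for 14 days. The DSS+BV group (n = 3) had the same DSS and received *Bacteroides vulgatus*, a gut commensal, in PBS on the same schedule. Every library therefore came from a colon exposed to DSS, and no library of an untreated colon was analysed here. The comparison asks how expression of these genes in the inflamed colon differed when the bacterium was given, and the study chose the 3 mice of each group at random.

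The extracellular matrix is the protein mesh between and beneath cells. Fibroblasts and smooth muscle cells secrete most of its interstitial glycoproteins, elastic fibres and small proteoglycans. Basement membranes, the thin sheets under epithelium and around vessels, muscle and nerves, are built from laminin trimers that nidogens, perlecan and agrin join to collagen IV and to cells. In colitis, injury of the epithelium is followed by remodelling of this mesh, and matricellular proteins such as tenascin C are known to be made where tissue is damaged.

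Total expected counts per library lay between 15623963 and 17254343 with DSS alone and between 15293276 and 16226998 with DSS+BV. The 42 genes together took 0.685%, 0.647% and 0.779% of the counts in the DSS mice. In the DSS+BV mice they took 0.537%, 0.361% and 0.328%. The groups did not overlap in this share. Over all 14579 tested genes the libraries did not part by treatment: DSS 1 correlated most with DSS+BV 1 (Pearson r = 0.967 across genes) and DSS 2 most with DSS+BV 2 (r = 0.963). These correlations are across genes, which are not independent replicates. DSS 2 and DSS+BV 1 lay nearest to the other group, and the counts over the 42 genes and their classes are given again without both, after the classes. In bulk tissue, fewer cells of a type and less RNA per cell cannot be told apart.

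All 42 genes passed the filter on low counts. Levels are CPM, read counts relative to the scaled library total, and are always listed in the order of mice 1, 2 and 3 of a group. A negative log2 fold change means a lower level with *B. vulgatus*, and SE is its standard error. By the thresholds of the study, a gene was called where the Benjamini-Hochberg adjusted p of edgeR's quasi-likelihood test was under 0.05 and its log2 fold change was over 1 in size. Spondin 2 (Spon2) was the only one of the 42 called, and it was lower in the DSS+BV group. Over all tested genes, 0.0892% were called lower and 0% higher. The log2 fold change was below 0 for 39 of the 42 genes, against 51.5% of all tested genes. The median over the 42 was -0.66, and it was -0.01 over all tested genes. At an unadjusted p under 0.05, 23 of the 42 were lower, against 9.12% of all tested genes, and 1 was higher, against 3.4%. Every DSS+BV library lay below every DSS library for 25 of the 42, against 11.3% of all tested genes. The opposite held for 1 gene, osteoglycin (Ogn), against 6.37%. DESeq2, the test of the study, called 8 of the 42 lower (Spon1, Spon2, Tnc, Lama1, Fbln2, Eln, Emilin1 and Dcn) and 0 higher, against 1.73% and 0.279% of the genes it tested.

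**Figure D1:**
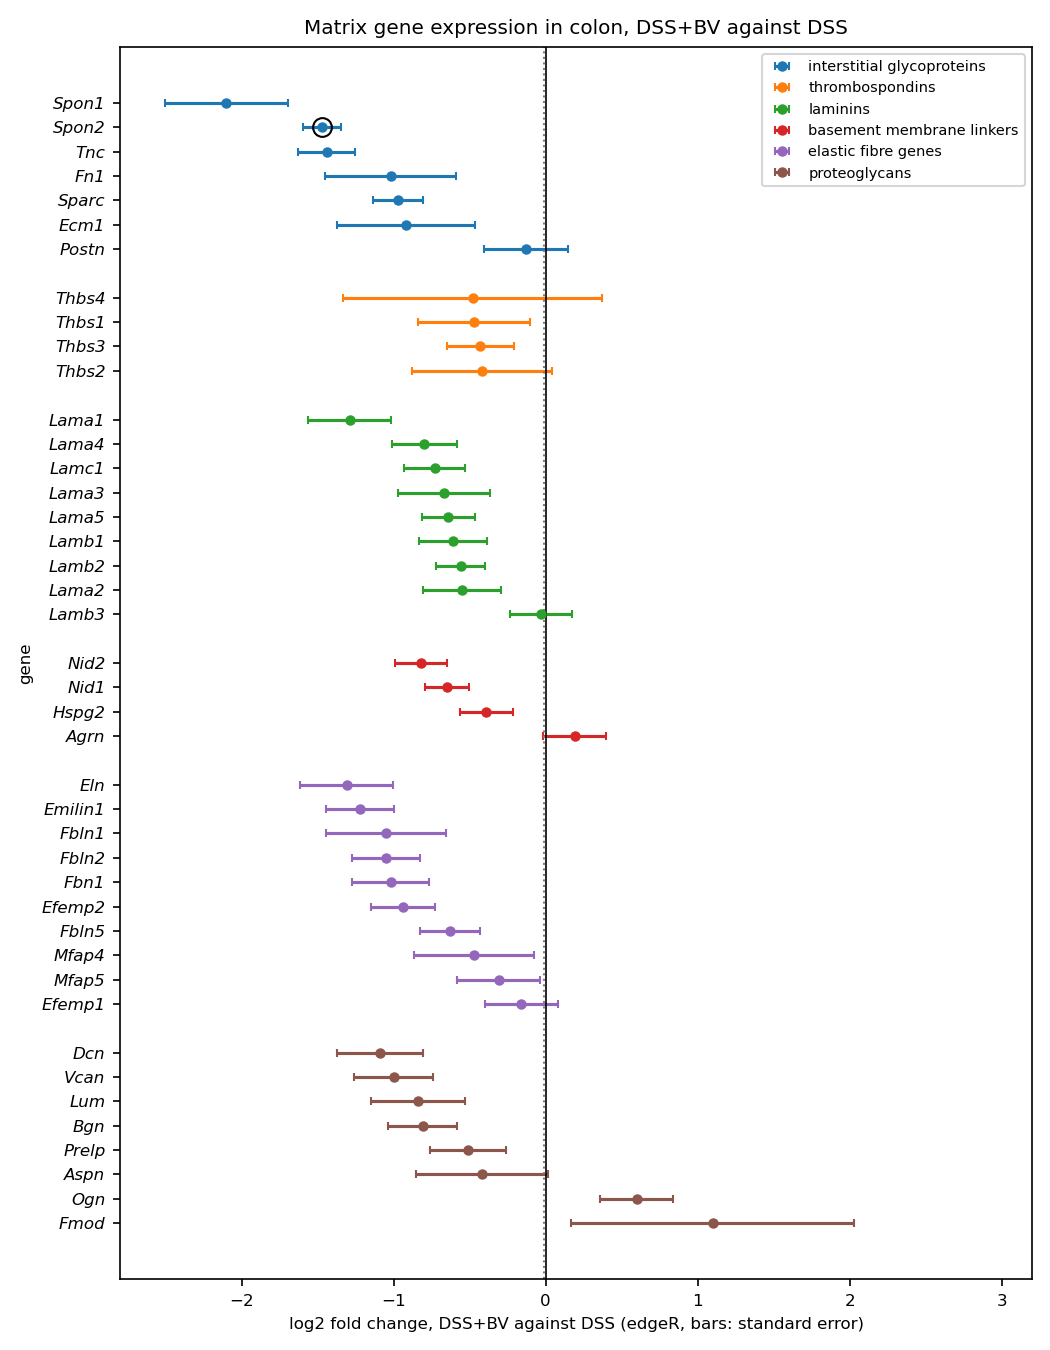
Log2 fold change of each of the 42 genes, DSS+BV against DSS, on the x axis, with genes on the y axis coloured by class; bars are the standard error from edgeR, the ring marks the called gene, the solid line is 0 and the dotted line the median of all tested genes. 39 points lie left of 0, from -2.10 for Spon1 to -0.03 for Lamb3, and Agrn, Ogn and Fmod lie right of it.

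The interstitial glycoproteins held the genes with the largest differences. All 7 had a log2 fold change below 0, with a median of -1.02. For 5 the groups did not overlap, against 11.3% of all tested genes. The secreted protein spondin 2 (Spon2, Entrez gene 100689, GRCm38.p6 chr5:33213518-33218254, minus strand) binds bacterial surface molecules and integrins on leukocytes. It was at 76.2, 70.5 and 75.7 CPM in the DSS mice and at 26.8, 24.5 and 29.1 CPM in the DSS+BV mice. No other gene of the 42 varied less within the DSS group, where its coefficient of variation was 4.24%. Spon2 fell by 1.47 on the log2 scale (SE 0.126, edgeR adjusted p = 0.0198), and its p-value ranked 8 among all tested genes. The direction held in every alternative fit. With any 1 library left out the call was lost, while the log2 fold change stayed between -1.53 and -1.40. Those fits called 0 to 3 genes of the whole series lower and 0 to 4 higher. The adjusted p of Spon2 ran from 0.0174 to 0.242 over the edgeR alternatives.

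Spondin 1 (Spon1, chr7:113765998-114043375, plus strand), an adhesive protein first known from the floor plate of the neural tube, was at 97.2, 65.2 and 108 CPM in the DSS mice. In the DSS+BV mice it was at 34.4, 14.9 and 13.8 CPM. The groups did not overlap, and DSS+BV 1 was the highest of its group. Its log2 fold change of -2.10 was the largest in size among the 42 (SE 0.404, edgeR adjusted p = 0.186). Tenascin C (Tnc, chr4:63959785-64047015, minus strand), a matricellular protein of injured tissue, was at 303, 406 and 379 CPM in the DSS mice and at 149, 109 and 143 CPM in the DSS+BV mice. These values also stood apart, with a log2 fold change of -1.44 (SE 0.189, edgeR adjusted p = 0.0833).

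Sparc, a collagen-binding glycoprotein that cells secrete during remodelling, had the highest level per length of the 42 in the DSS group, at 154 CPM per kilobase of exon. Length here is that of all annotated exons of a gene merged, so ranks by it depend on the annotated isoforms. Sparc was at 508, 602 and 640 CPM in the DSS mice and at 337, 268 and 289 CPM in the DSS+BV mice, with no overlap. The log2 fold change was -0.97 (SE 0.165, edgeR adjusted p = 0.158). Fibronectin (Fn1), the adhesive protein that integrins assemble into fibrils, was at 862, 583 and 696 CPM in the DSS mice and at 567, 321 and 166 CPM in the DSS+BV mice. The groups did not overlap, but the lowest DSS and the highest DSS+BV value lay close together, and the log2 fold change was -1.02 (SE 0.431, edgeR adjusted p = 0.4).

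Periostin (Postn), which links collagen to tenascin C, did not follow these genes. It was at 371, 260 and 487 CPM in the DSS mice and at 428, 319 and 273 CPM in the DSS+BV mice, so the groups overlapped. Its log2 fold change was -0.13 (95% interval -0.79 to 0.53, edgeR adjusted p = 0.87). Ecm1, a secreted glycoprotein that binds perlecan, had a log2 fold change of -0.92 with overlapping groups, and DSS 2 was at 39.9 CPM against 42 CPM in DSS+BV 2.

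**Figure D2:**
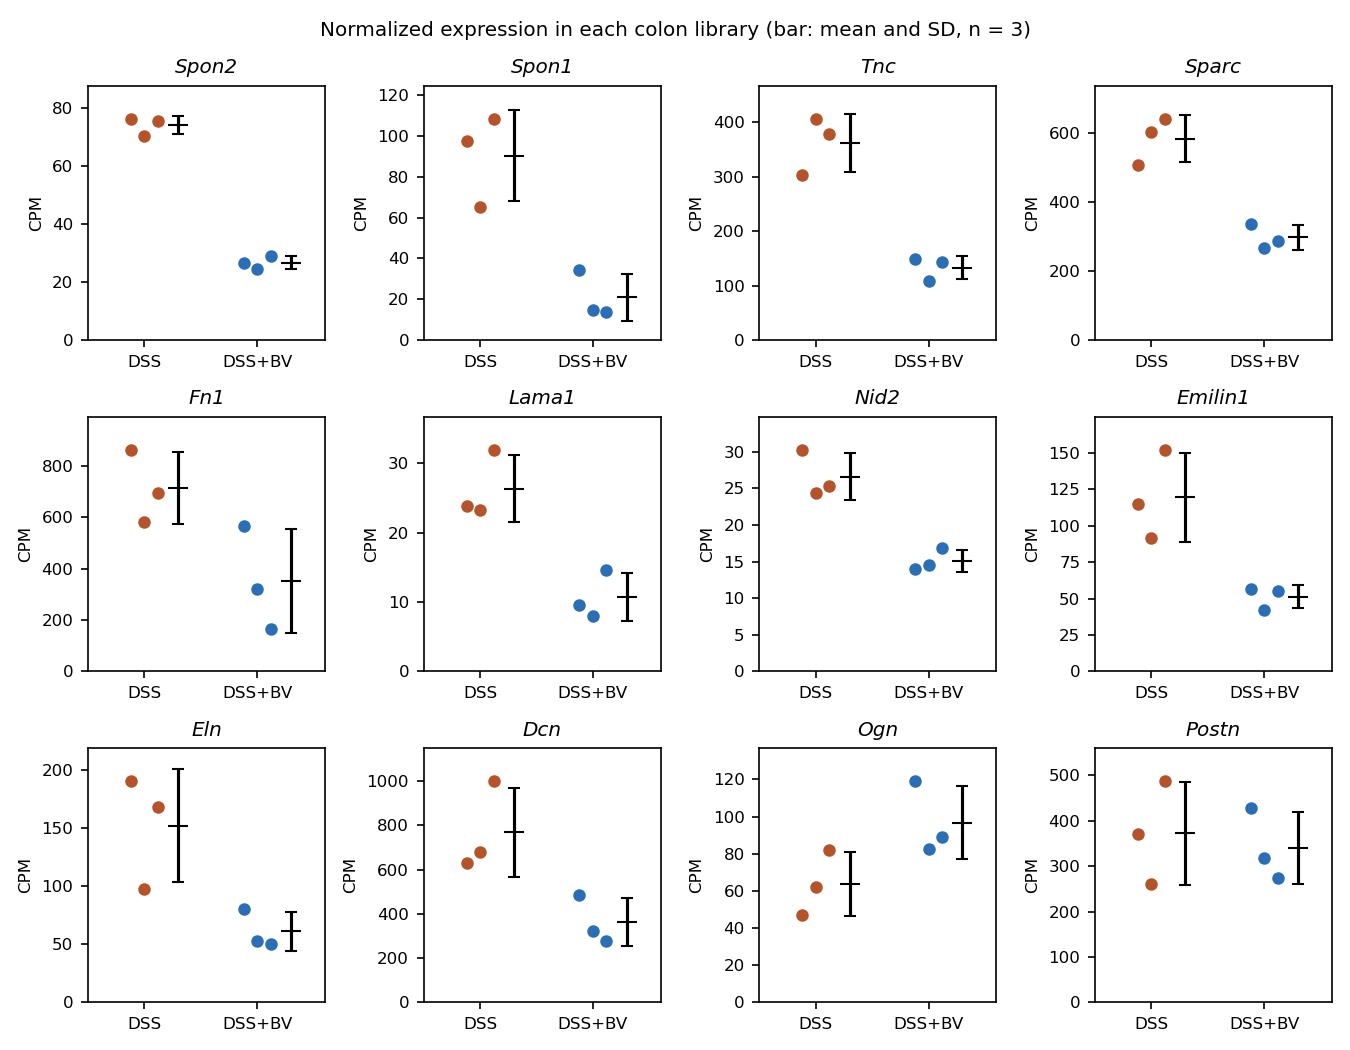
CPM of 12 of the genes in each library; points are single mice (DSS left, DSS+BV right), and the bars give the mean and SD of each group (n = 3). Spon2 shows the tightest groups, at 74.1 ± 3.15 and 26.8 ± 2.28 CPM, Postn overlaps, and Ogn is higher in every DSS+BV mouse.

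The tenascin C gene and the osteoglycin gene differed in opposite directions without overlap. The 250 bases before the annotated start site were sought for the genes called by DESeq2 and for Ogn. Only the windows of Tnc and Ogn were both available and clear of the annotated gene, so only these are shown. Sequences are from RefSeq on GRCm38.p6, on the gene's own strand, 5′ to 3′. Capitals mark matches to the 4 motifs searched on both strands: the GC box GGGCGG, the TATA box TATAAA, the AP-1 site TGANTCA and the SMAD-type element CAGACA.
Tnc (chr4:64047016-64047265, minus strand): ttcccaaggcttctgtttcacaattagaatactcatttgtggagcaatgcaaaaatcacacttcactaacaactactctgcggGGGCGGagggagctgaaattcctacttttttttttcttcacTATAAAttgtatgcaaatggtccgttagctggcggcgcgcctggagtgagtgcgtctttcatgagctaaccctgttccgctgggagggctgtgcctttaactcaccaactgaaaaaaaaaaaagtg
Ogn (chr13:49607765-49608014, plus strand): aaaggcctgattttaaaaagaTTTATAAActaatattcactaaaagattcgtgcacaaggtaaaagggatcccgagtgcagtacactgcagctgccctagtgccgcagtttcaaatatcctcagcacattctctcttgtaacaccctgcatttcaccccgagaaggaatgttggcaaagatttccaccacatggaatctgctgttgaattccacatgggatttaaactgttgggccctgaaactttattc
The Tnc window held a GC box from base -167 and a TATA box from base -126, counted from the start site. In Ogn, matches to the TATA box on both strands overlapped, and no GC box was found. Windows were available for 28 of the 42 genes. Of these, 16 (57.1%) held a GC box, against 33% of 27025 promoters of the same length. The SMAD-type element was in 8 (28.6%, against 17.1%), the TATA box in 5 (17.9%, against 13%) and the AP-1 site in 2 (7.14%, against 6.85%). The 27025 promoters were not chosen by expression in the colon, while all 42 genes passed the filter on low counts, so these shares compare unlike sets. These matches describe letters in the window and not binding.

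The 4 thrombospondins, large calcium-binding glycoproteins that act on cell adhesion, had log2 fold changes between -0.48 and -0.42. None of the 4 reached an unadjusted p under 0.05. Thbs1 was at 142, 271 and 235 CPM in the DSS mice and at 224, 151 and 93.4 CPM in the DSS+BV mice. Its groups overlapped (log2 fold change -0.47, SE 0.368, edgeR adjusted p = 0.63). Thbs3 was at 13.4, 15.7 and 21.1 CPM and at 13.3, 12.2 and 11.9 CPM in the same order, with DSS 1 and DSS+BV 1 nearly level (log2 fold change -0.43, edgeR adjusted p = 0.474). Thbs4, the highest of the family per kilobase of exon, spread most: it was at 465, 459 and 353 CPM in the DSS mice and at 627, 255 and 32.6 CPM in the DSS+BV mice. Its highest and its lowest value both belonged to the DSS+BV group, and the 95% interval of its log2 fold change ran from -2.52 to 1.56.

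Laminins are trimers of an alpha, a beta and a gamma chain, and 9 chain genes were measured. All 9 had a log2 fold change below 0, with a median of -0.64. For 7 of them the groups did not overlap, against 11.3% of all tested genes. Lama1, the alpha chain of laminin-111, was at 23.8, 23.3 and 31.9 CPM in the DSS mice and at 9.63, 7.96 and 14.6 CPM in the DSS+BV mice. It had the largest difference of the chains, with a log2 fold change of -1.29 (SE 0.275, edgeR adjusted p = 0.218), at one of the lowest levels per length of the 42, 2.72 CPM per kilobase in the DSS group. Lama4, the alpha chain of vessel and stromal laminins, was at 115, 85.6 and 129 CPM and at 76.7, 51.5 and 61.8 CPM in the same order (log2 fold change -0.80, SE 0.214, edgeR adjusted p = 0.297). Lamc1, the gamma chain shared by most laminin trimers, had a log2 fold change of -0.73, and the beta chains Lamb1 and Lamb2 had -0.61 and -0.56. Lama5, the main alpha chain under mature colon epithelium, had -0.64, and Lama2, the alpha chain around muscle, had -0.55 with overlapping groups.

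Lamb3 and Lama3 encode chains of laminin-332, the laminin that anchors epithelium through hemidesmosomes. Lamb3 was at 164, 215 and 273 CPM in the DSS mice and at 200, 219 and 221 CPM in the DSS+BV mice, so the groups overlapped. Its log2 fold change was -0.03 (95% interval -0.51 to 0.46, edgeR adjusted p = 0.968), and its sign changed in 4 alternative fits. Lama3, the alpha chain, was at 84.2, 85.3 and 172 CPM in the DSS mice and at 64.6, 80.3 and 70.1 CPM in the DSS+BV mice. The log2 fold change of Lama3 was -0.67, and it was -0.24 without DSS 3. The mean log2 CPM of Lama3, Lamb3 and Lama5 exceeded that of Lama2, Lama4 and Lamb1 by 0.27, 0.67 and 0.72 in the DSS mice and by 0.48, 1.08 and 0.85 in the DSS+BV mice. Which cells made these chains was not tested. These differences within a library overlapped between the groups.

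Among the proteins that tie laminin to the rest of the basement membrane, both nidogens stood apart between the groups. Nid1 was at 153, 163 and 195 CPM in the DSS mice and at 119, 103 and 103 CPM in the DSS+BV mice (log2 fold change -0.65, SE 0.145, edgeR adjusted p = 0.239). The Nid1 counts were not whole numbers in all 6 libraries, since the authors' program divided reads that matched more than 1 gene or transcript. Nid2 was at 30.2, 24.3 and 25.3 CPM and at 14, 14.5 and 16.8 CPM in the same order (log2 fold change -0.82, SE 0.168, edgeR adjusted p = 0.209). A gene on the opposite strand overlaps 8.4% of the Nid2 exon length. Perlecan (Hspg2), the large heparan sulfate proteoglycan of basement membranes, had a log2 fold change of -0.39 with no overlap between groups. Agrin (Agrn), which joins laminin to dystroglycan, was at 120, 130 and 121 CPM in the DSS mice and at 138, 105 and 181 CPM in the DSS+BV mice. Its groups overlapped, and the log2 fold change of 0.19 had a 95% interval from -0.30 to 0.68.

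Elastic fibres consist of an elastin core on a scaffold of fibrillin microfibrils, assembled with fibulins and emilin. All 10 genes of this class had a log2 fold change below 0, with a median of -0.98. For 6 the groups did not overlap, against 11.3% of all tested genes. Elastin (Eln) was at 190, 97.1 and 168 CPM in the DSS mice and at 80.5, 52.6 and 49.9 CPM in the DSS+BV mice. The highest DSS+BV value lay below the lowest DSS value, and the log2 fold change was -1.31 (SE 0.305, edgeR adjusted p = 0.245). Emilin1, a glycoprotein at the interface of elastin and microfibrils, was at 115, 91.8 and 152 CPM and at 56.3, 42.4 and 55.3 CPM in the same order (log2 fold change -1.22, SE 0.222, edgeR adjusted p = 0.173).

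Fibulin 2 (Fbln2), which binds fibronectin, laminin and elastin precursors, was even within the DSS group, at 75.1, 69.4 and 69.2 CPM, and was at 46.1, 31.2 and 25.9 CPM in the DSS+BV mice. Its log2 fold change was -1.05 (SE 0.223, edgeR adjusted p = 0.218). Fibrillin 1 (Fbn1), the backbone of microfibrils, had -1.02, and 20.1% of its exon length overlaps a gene model on the opposite strand, so its value is uncertain where counting did not use strand. Fbln1 had -1.05 with overlapping groups, since DSS 2 was at 92.4 CPM and DSS+BV 1 at 94.8 CPM. Efemp2 (fibulin 4) and Fbln5, both needed for elastic fibre assembly, had -0.94 and -0.63 without overlap. The microfibril-associated Mfap4 and Mfap5 and the fibulin Efemp1 lay between -0.47 and -0.16, with groups that overlapped.

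**Figure D3:**
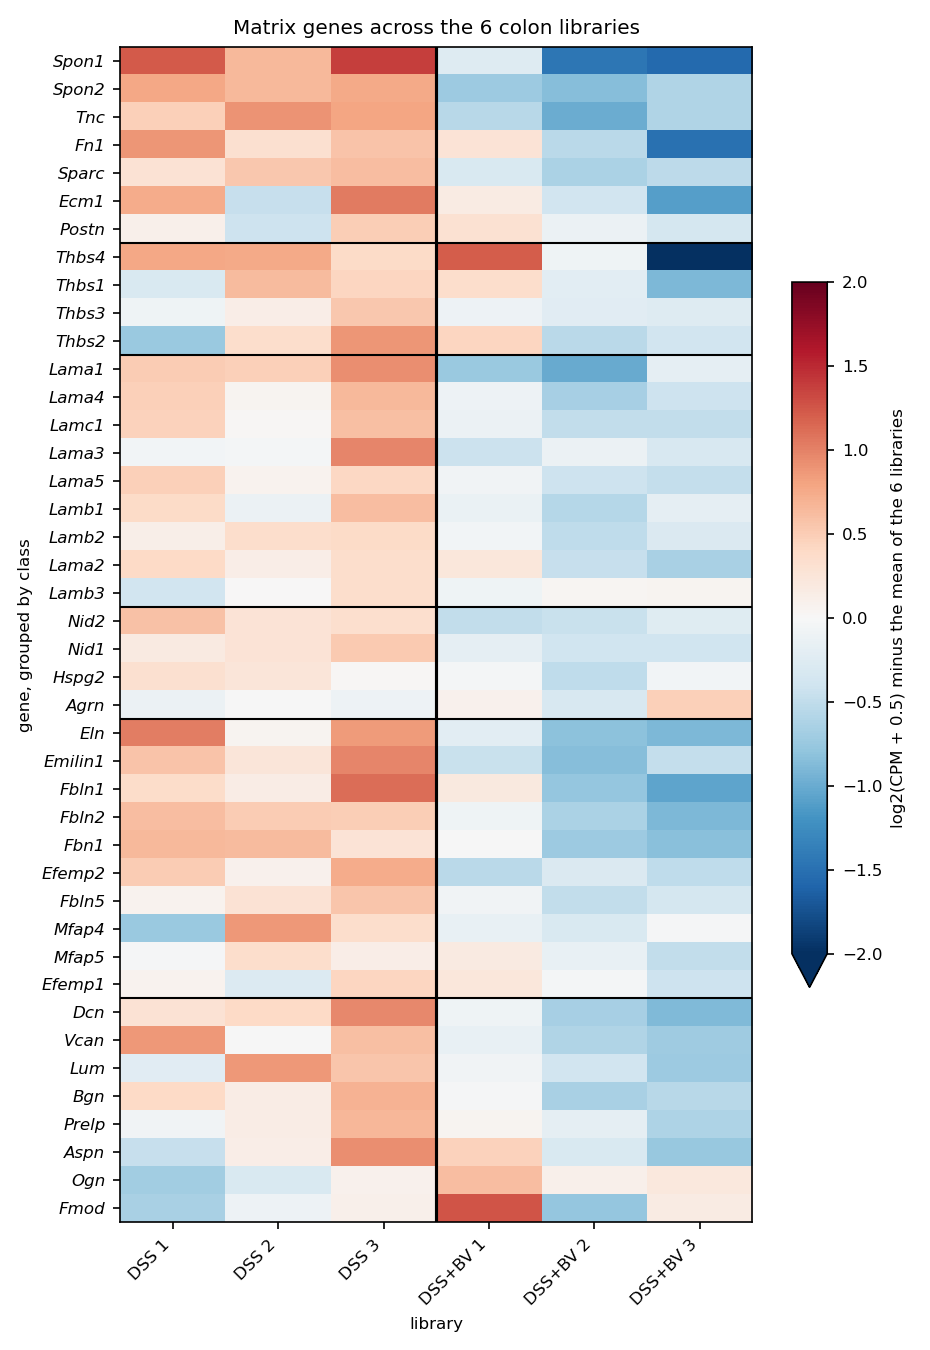
Level of each of the 42 genes (rows, grouped by class and ordered by fold change) in each of the 6 libraries (columns), as log2(CPM + 0.5) minus the mean of the gene's 6 values; red is above and blue below that mean, and values under -2 share the darkest blue. The DSS columns are mostly red and the DSS+BV columns mostly blue, DSS+BV 1 is the palest of its group, and Thbs4 in DSS+BV 3 (32.6 CPM) passes the end of the scale.

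Proteoglycans carry glycosaminoglycan chains on a core protein, and the small leucine-rich members bind collagen fibrils and set their spacing. Decorin (Dcn), the most abundant of these in the DSS group at 132 CPM per kilobase of exon, was at 628, 680 and 1000 CPM in the DSS mice and at 485, 323 and 278 CPM in the DSS+BV mice. The groups stood apart, with a log2 fold change of -1.09 (SE 0.284, edgeR adjusted p = 0.285). Versican (Vcan), a large hyaluronan-binding proteoglycan, was at 112, 61.2 and 93.4 CPM and at 55.2, 40.5 and 37.4 CPM in the same order (log2 fold change -1.0, SE 0.26, edgeR adjusted p = 0.284). Biglycan (Bgn), close to decorin in sequence, had -0.81 without overlap. Lumican (Lum) had -0.84 with overlap, Prelp -0.51 and asporin (Aspn) -0.42.

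Osteoglycin (Ogn, also called mimecan; chr13:49608015-49624501, plus strand) was the only one of the 42 that lay higher in every DSS+BV mouse. It was at 47.2, 62 and 81.8 CPM in the DSS mice and at 119, 82.3 and 88.9 CPM in the DSS+BV mice. All DSS+BV values lay above all DSS values, with DSS 3 and DSS+BV 2 nearly level, and the log2 fold change was 0.60 (95% interval 0.03 to 1.18, edgeR adjusted p = 0.39). It stayed above 0 in every alternative fit, between 0.42 and 0.82. Per kilobase of exon, Ogn ranked 16 of the 42 with DSS alone and 5 with DSS+BV. Aspn lies 40.4 kb before Ogn on chromosome 13, with Omd as the protein-coding gene annotated between them, and its groups overlapped. The adjacent pair Dcn and Lum on chromosome 10, 47.3 kb apart, had log2 fold changes of -1.09 and -0.84. Fibromodulin (Fmod) was near the limit of detection, at 3, 8 and 11 counts in the DSS mice and at 31, 2 and 11 counts in the DSS+BV mice. Its log2 fold change of 1.10 (SE 0.93) became -0.09 without DSS+BV 1.

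The order of levels per kilobase of exon was led by much the same genes in both groups. Between genes, this order also depends on the merged exon length used for each. In the DSS group Sparc, Dcn and Thbs4 led, at 154, 132 and 130 CPM per kilobase, followed by Fn1 (61.1) and Bgn (60.2). In the DSS+BV group Thbs4 (92.7), Sparc (78.7) and Dcn (62) led, followed by Postn (39.1) and Ogn (37.6). The spread of Thbs4 in the DSS+BV mice was wider than its distance to Sparc and Dcn, so their order there is not settled.

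Within the groups, the libraries were not interchangeable. Of the 42 genes, 34 had their highest DSS+BV value in DSS+BV 1, and 25 had their highest DSS value in DSS 3. The median coefficient of variation was 23.1% among DSS mice and 22.3% among DSS+BV mice. For the 16 genes whose groups overlapped, DSS+BV 1 was the highest DSS+BV library in 13. Without DSS+BV 1, 31 of the 42 genes lay lower without overlap, against 21.3% of all tested genes, and without DSS 1 the count was 29, against 18.8%. Without DSS 2 it was 28, against 18.8%. It stayed at 25 without DSS 3, DSS+BV 2 or DSS+BV 3, against 13.5%, 12.6% and 15.4%. Leaving out a library can only keep or raise this count, so a rise by itself shows nothing. Leaving out both DSS 2 and DSS+BV 1, chosen after the data were seen, gave 34 genes, against 29% of all tested genes. By class, 7 of 7 interstitial glycoproteins, 2 of 4 thrombospondins, 8 of 9 laminins, 3 of 4 linkers, 9 of 10 elastic fibre genes and 5 of 8 proteoglycans then lay lower without overlap. The log2 fold change was below 0 for 38 of the 42, against 50.5% of all genes tested in that fit, and 25 were lower at an unadjusted p under 0.05, against 13.1%. The edgeR test then called 10 of the 42 lower (Eln, Emilin1, Fbln1, Fbln2, Fbn1, Lama4, Spon1, Spon2, Tnc and Vcan), against 2.27% of all genes, and 0 higher, against 1.92%. Since both are the libraries nearest to the other group, leaving them out widens the distance between the groups by construction.

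Other genes of the matrix were followed through lists that hold none of the 42. The first list held glycoproteins, proteoglycans and the hyaluronan synthases Has1, Has2 and Has3. Of its 42 tested genes, 0 were called with edgeR in either direction, and 33 had a log2 fold change below 0. The median of this list was -0.59. At an unadjusted p under 0.05, 13 were lower and 1 was higher, against 9.12% and 3.4% of all tested genes. DESeq2 called 3 lower and 0 higher, against 1.73% and 0.279% of the genes it tested. The axon guidance glycoprotein Slit3 was at 72.6, 66.2 and 49.3 CPM in the DSS mice and at 23.2, 19.2 and 14.2 CPM in the DSS+BV mice (log2 fold change -1.73). Slit3 was named after its values were seen. Of 34 receptor genes, which bind these proteins on the cell surface (integrins, dystroglycan, syndecans, glypicans and others), 0 were called with edgeR, 24 were below 0, and the median was -0.34. At an unadjusted p under 0.05, 9 receptors were lower and 1 was higher, against the same 9.12% and 3.4%. DESeq2 called 2 of the receptors lower and 0 higher, against 1.73% and 0.279%. Itgb3, the beta chain of a receptor for vitronectin and fibronectin, had a log2 fold change of -1.11, Itgav, its alpha partner, had -0.71, and Cd44, the hyaluronan receptor, had 0.82 with overlapping groups. These 3 receptors were also named after their values were seen.

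Markers of the cells that make matrix were examined beside these genes. Of 16 fibroblast markers that are not matrix genes, 15 had a log2 fold change below 0, with a median of -0.53. Their summed level lay between 621 and 730 CPM with DSS alone and between 319 and 466 CPM with DSS+BV. These sums depend strongly on Grem1, at 160, 226 and 139 CPM and at 64.8, 28.5 and 37 CPM in the same order. For 5 of the 16 the groups stood apart in the lower direction, against 11.3% of all tested genes, and 0 were called with edgeR. The 7 pericyte markers had a median of -0.68, with sums of 449 to 830 CPM and 342 to 407 CPM. Abcc9, at 122, 168 and 148 CPM and at 48.1, 62.4 and 44.9 CPM, weighed on these sums, and the groups overlapped for Rgs5, the most abundant. Grem1 and Abcc9 were named after their values were seen. All 10 endothelial markers were below 0 (median -0.63), with sums of 524 to 710 CPM and 359 to 459 CPM. The 11 smooth muscle markers had a median of -0.11, with 7 below 0, and their sums, 3659 to 4585 CPM and 2876 to 4398 CPM, overlapped.

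All 13 markers of colon epithelium had log2 fold changes above 0, with a median of 0.48. With edgeR 0 were called, and 5 were higher at an unadjusted p under 0.05, against 3.4% of all tested genes. For 6 of the 13 the groups stood apart in the higher direction, against 6.37%. The sums of the 13 were 15640 to 25750 CPM with DSS alone and 27190 to 45100 CPM with DSS+BV. These sums depend strongly on Muc2, at 2340, 10200 and 4240 CPM in the DSS mice and at 6880, 8270 and 20700 CPM in the DSS+BV mice. Car1 also weighed on them, at 924 CPM in DSS+BV 1 against 10500 and 8700 CPM in DSS+BV 2 and 3. Muc2 and Car1 were named after their values were seen. The 9 macrophage markers, all below 0 with a median of -0.89, had overlapping sums of 829 to 1919 CPM and 532 to 1346 CPM. All 8 enteric neuron and glia markers were below 0 (median -1.68), with sums of 49.4 to 165 CPM and 32.7 to 34.1 CPM. The 8 neutrophil markers were all below 0 (median -3.43), and 6 of them fell by the edgeR call, against 0.0892% of all tested genes. For 7 of the 8 the groups stood apart, against 11.3% of all tested genes. The mean log2 CPM of these markers also stood apart, at 4.83, 4.37 and 4.93 in the DSS mice and 2.01, 1.61 and 1.04 in the DSS+BV mice. Their sums of 216 to 1027 CPM and 31.2 to 326 CPM overlapped through Ly6g, at 485, 76.1 and 854 CPM and at 303, 215 and 19.1 CPM. Mesothelial, adipocyte and squamous markers were scarce, with sums of at most 10.2, 29.5 and 18.8 CPM in any library. Among defining markers, Krt5 was at 0 in DSS+BV 1 and 3, Upk3b in DSS 1 and all DSS+BV libraries, and Adipoq in DSS+BV 3. The part of these cell types in the matrix differences was not tested.

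**Figure D4:**
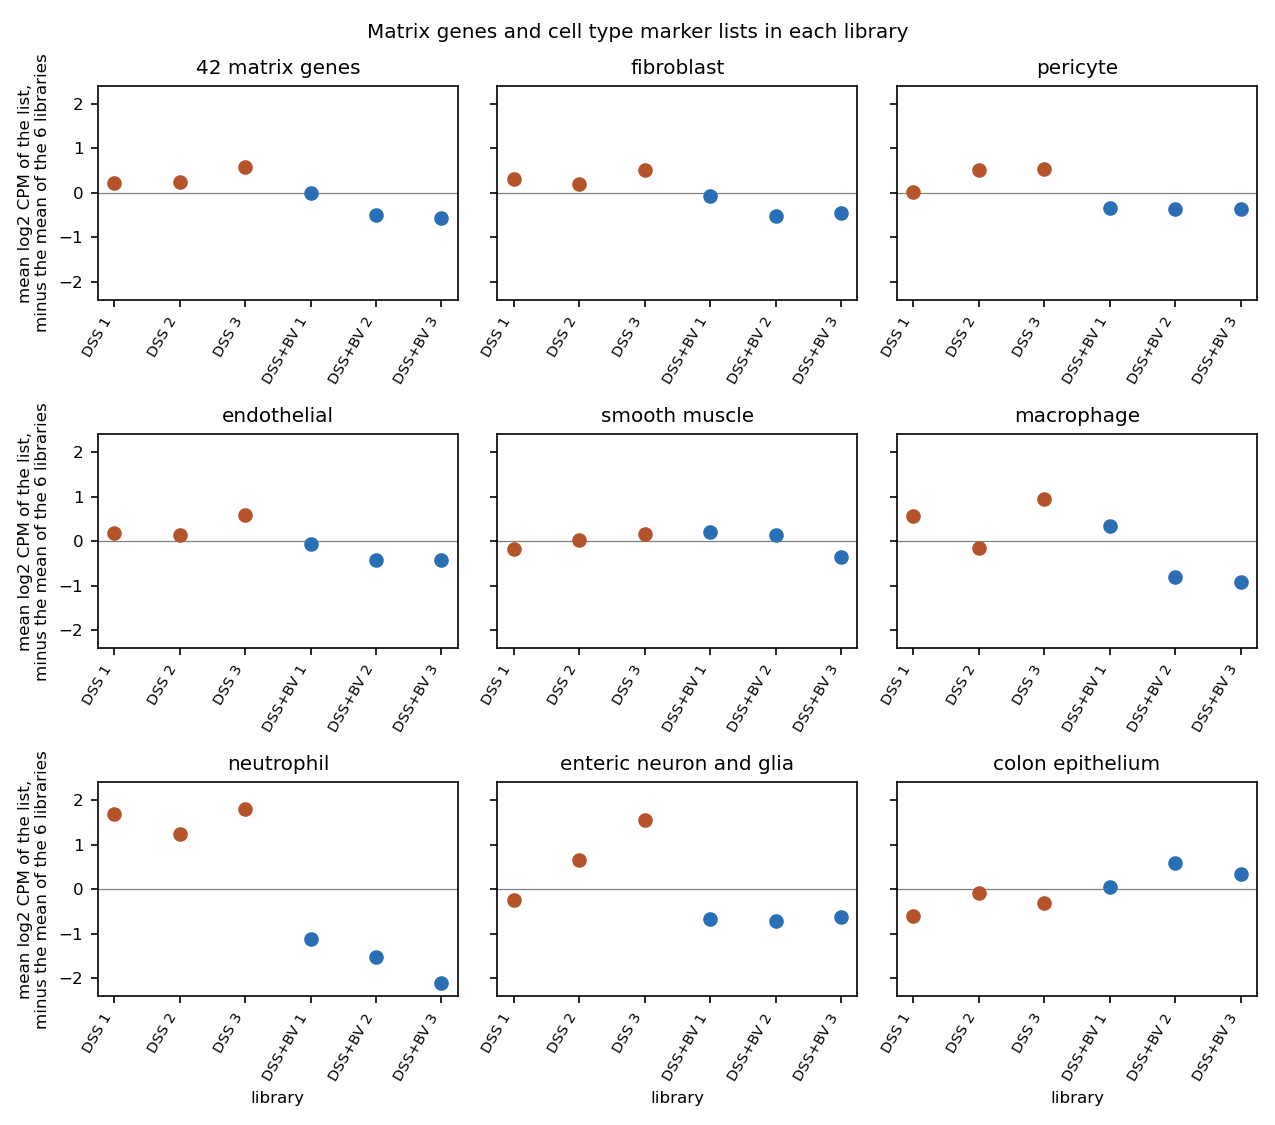
Mean log2 CPM of the 42 matrix genes and of 8 lists of cell type markers in each library, each minus its mean over the 6 libraries (y axis); orange points are DSS and blue points DSS+BV libraries. The matrix genes and the fibroblast, pericyte, endothelial, neutrophil and enteric lists are higher in every DSS than in every DSS+BV library, the epithelial list is lower, and the smooth muscle and macrophage lists overlap.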

How the data were processed

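RNA from the colon of 6 mice, 1 library each, had been sequenced. The values the authors deposited are RSEM expected counts, 1 per gene and library and not normalised. The submitters' processing notes name GRCm38.p6, HISAT2 2.1.0, Bowtie2 2.2.5 and RSEM 1.2.8. Whether counting used strand is not given in the sources used here.

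For testing, each expected count was rounded. filterByExpr (minimum count 10, minimum total 15) chose the genes, TMM gave the scaling factors, and DSS+BV was set against DSS by edgeR (version 4.0.16; R version 4.3.3) in a quasi-likelihood fit. Benjamini-Hochberg adjustment covered all 14579 tested genes. The standard error is the log2 fold change divided by the square root of the F statistic. DESeq2 1.42.0 was an alternative. List scores are means of log2 CPM with a prior count of 2. Exon lengths, with all annotated exons of a gene merged, came from GENCODE M21, and gene positions and promoters from RefSeq, both on GRCm38. Figures were drawn with matplotlib 3.10.9.

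The members, classes and lists were chosen with earlier results of these data known. Values in every library are given for genes called by edgeR or DESeq2, the 2 genes of smallest p in each class, Fn1, Tnc, Postn, Sparc, Dcn and Vcan, and genes above 0. Thbs4, Lama3, Lamb3 and single values of Ecm1 and Fbln1 were added after their values were seen. The other alternatives were RLE and upper-quartile factors, 2 filters, the adjusted p alone, a replicate block and each library left out in turn; leaving out 2 libraries together was added after the data were seen. The tests were checked on simulated data.

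Each library came from its own mouse. Pairs within a group differed by more than counting noise (chi-square over its degrees of freedom, 43.69 or higher), so none was a duplicate.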

Additional observations from a re-analysis of the deposited data

How the results depend on the processing

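With DESeq2, 8 of the 42 genes were called lower, and with the replicate number as a block edgeR called 0, with a smallest adjusted p of 0.18 for Spon2. With 1 library left out, edgeR called 0 in every case (range 0 to 0), against 1 with all libraries. Without DSS 2 and DSS+BV 1, an alternative added after the data were seen, it called 10, against 333 of 14654 genes (2.27%) lower and 282 (1.92%) higher in that fit. The fits with the block or 1 library left out called at most 3 genes of the whole series lower and 4 higher, against 13 and 0 with all libraries. In edgeR, RLE and upper-quartile factors, both other filters and the adjusted p alone each called Spon2 and no other of the 42. In DESeq2, Sparc, Nid1, Nid2, Fbn1, Efemp2 and Vcan also had an adjusted p under 0.05, from 3.84e-05 for Sparc to 0.045 for Vcan. They were not called, since their DESeq2 log2 fold changes were not over 1 in size. No alternative called any of the 42 higher, where 1 gene, Ogn, had an unadjusted p under 0.05. The median log2 fold change of the 42 kept its direction, from -0.84 without DSS+BV 1 to -0.60 without DSS 3, and was -0.88 without DSS 2 and DSS+BV 1, the largest in size. The median of all genes was -0.01, and -0.06 with upper-quartile factors.

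Signs turned only for genes that were not called in any fit. Without DSS 3, Postn was at 0.11, Lamb3 at 0.17, Efemp1 at 0.04 and Aspn at 0.02. Without DSS+BV 3, Postn was at 0.01, Thbs4 at 0.05, Efemp1 at 0 and Agrn at -0.02. Without DSS+BV 1, Lamb3 was at 0.03 and Fmod at -0.09. Lamb3 was at 0 with the block and at 0.03 without DSS 2 and DSS+BV 1. With 1 library left out, the log2 fold changes ran from -0.33 to 0.11 for Postn, -1.55 to 0.05 for Thbs4, -0.19 to 0.17 for Lamb3, -0.02 to 0.37 for Agrn, -0.31 to 0.04 for Efemp1, -0.09 to 1.63 for Fmod and -0.82 to 0.02 for Aspn. The cause of these changes was not tested.

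The replicate numbers did not pair the mice: the deviations of same-numbered libraries from their group means correlated at 0.267, 0.255 and -0.296, so the blocked fit is given only here. Fmod, with 2 to 31 counts, is limited by depth.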
